A study of Homo sapiens with 12 samples.

Results

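The RGS genes encode regulators of G protein signalling, and 8 of them are described here: RGS2, RGS3, RGS4, RGS5, RGS10, RGS16, RGS19 and RGS20. They are 8 of the 21 numbered RGS genes and of the 35587 gene symbols in the deposited table, and they were chosen by earlier readings of their TPM and of the differences between lines and coatings in these same libraries, so their levels are given as a description without p-values. Polyadenylated RNA was measured in TeloHAEC, an aortic endothelial cell line immortalised with telomerase. The 12 libraries came from 3 lines: NT, whose genotype is labelled wild type, TKO, in which Cas9 and a guide RNA were directed at TSPAN14, and NKO, in which they were directed at NOTCH1. Each line was plated for 24 h on dishes coated at 2.5 mg/mL either with IgG, the control protein, or with DLL4, a ligand of Notch receptors, and each of the 6 groups holds 2 libraries. There is 1 line for each targeted gene, so the edit and any other difference between 1 line and another cannot be told apart. Libraries of a group are labelled as biological replicates with no further detail, so the p-values below measure the spread between these libraries.

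A heterotrimeric G protein is switched on when an activated receptor loads its alpha subunit with GTP, and it switches itself off by hydrolysing that GTP. RGS proteins bind the active alpha subunit and speed up this hydrolysis, which shortens the signal from the receptor. In endothelium, receptors for thrombin, sphingosine-1-phosphate, adenosine and prostaglandins signal in this way. RGS2, RGS3, RGS4, RGS5 and RGS16 belong to the R4 subfamily, RGS10 to the R12 subfamily, and RGS19 and RGS20 to the RZ subfamily.

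RefSeq sequences around the annotated start site (GRCh38.p14, 250 bases before the start and 50 from it) were found for 7 of the 8 genes, all except RGS20. The 4 printed here are those of RGS2, RGS3, RGS4 and RGS5, the R4 genes that reached 50 TPM in at least 1 library and differed between coatings or lines. Each is written 5′ to 3′ on the strand of the gene, and the capitals mark the 50 bases from the start site onward.
RGS2, chr1:192808789-192809088, plus strand: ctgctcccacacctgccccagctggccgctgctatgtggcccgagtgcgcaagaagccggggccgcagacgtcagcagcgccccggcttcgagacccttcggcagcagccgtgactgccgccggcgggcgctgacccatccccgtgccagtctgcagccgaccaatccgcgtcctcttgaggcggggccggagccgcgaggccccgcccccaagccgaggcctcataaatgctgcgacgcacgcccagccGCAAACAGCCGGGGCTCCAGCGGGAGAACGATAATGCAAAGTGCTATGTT
RGS3, chr9:113444480-113444779, plus strand: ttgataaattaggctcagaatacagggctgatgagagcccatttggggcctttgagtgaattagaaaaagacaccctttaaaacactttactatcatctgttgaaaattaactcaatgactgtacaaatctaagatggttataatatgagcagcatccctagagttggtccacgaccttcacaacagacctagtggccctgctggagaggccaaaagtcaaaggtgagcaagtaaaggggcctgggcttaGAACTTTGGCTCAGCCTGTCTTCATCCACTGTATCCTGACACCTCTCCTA
RGS4, chr1:163068621-163068920, plus strand: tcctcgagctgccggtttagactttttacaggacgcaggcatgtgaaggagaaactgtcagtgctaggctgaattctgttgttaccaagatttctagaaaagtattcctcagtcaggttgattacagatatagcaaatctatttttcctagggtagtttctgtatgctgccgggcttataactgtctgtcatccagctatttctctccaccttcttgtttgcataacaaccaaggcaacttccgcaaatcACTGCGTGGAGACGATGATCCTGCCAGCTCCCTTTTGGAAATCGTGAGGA
RGS5, chr1:163321686-163321985, minus strand: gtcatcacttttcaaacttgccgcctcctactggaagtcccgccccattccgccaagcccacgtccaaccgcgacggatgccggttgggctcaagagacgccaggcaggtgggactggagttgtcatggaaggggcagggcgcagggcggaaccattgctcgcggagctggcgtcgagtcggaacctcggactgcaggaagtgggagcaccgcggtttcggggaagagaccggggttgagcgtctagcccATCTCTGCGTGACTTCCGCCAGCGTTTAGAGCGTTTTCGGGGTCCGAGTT
The RGS2 and RGS5 windows held 69.7% and 63.0% G and C, and those of RGS3 and RGS4 held 44.0% and 44.7%, against a median of 58.3% over the 27305 promoters in the table. On either strand, none of the 7 windows held TGGGAA (the core bound by the Notch cofactor RBPJ, present in 24.3% of all promoters), the E-box CACGTG (7.43%), the cyclic AMP response element TGACGTCA (1.98%) or the AP-1 motif TGANTCA (7.76%). These windows cover 1 start each, whereas GENCODE 29 lists 4 transcript starts for RGS2, 30 for RGS3, 8 for RGS4 and 19 for RGS5, and a TPM summed by gene symbol does not tell which start was used.

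The values are TPM, transcript abundances scaled to a common library total, which are scaled for transcript length and can be set beside each other between genes. Over the 12 libraries the mean was highest for RGS4 (192.6 TPM), then RGS10 (146.0), RGS3 (127.9), RGS5 (72.7), RGS19 (45.0), RGS2 (33.6), RGS20 (17.7) and RGS16 (4.14). The ranges of the highest genes overlapped, 73.2 to 286.3 TPM for RGS4, 114.9 to 188.1 for RGS10, 78.3 to 206.6 for RGS3 and 2.55 to 220.6 for RGS5. The order differed between groups, and RGS4 ranked only number 4 in NT on IgG. The ratio of the highest to the lowest library was 86.7 for RGS5, 20.8 for RGS16 and 6.22 for RGS2. RGS10 and RGS19 were the steadiest, with ratios of 1.64 and 1.32.

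**Figure D1:**
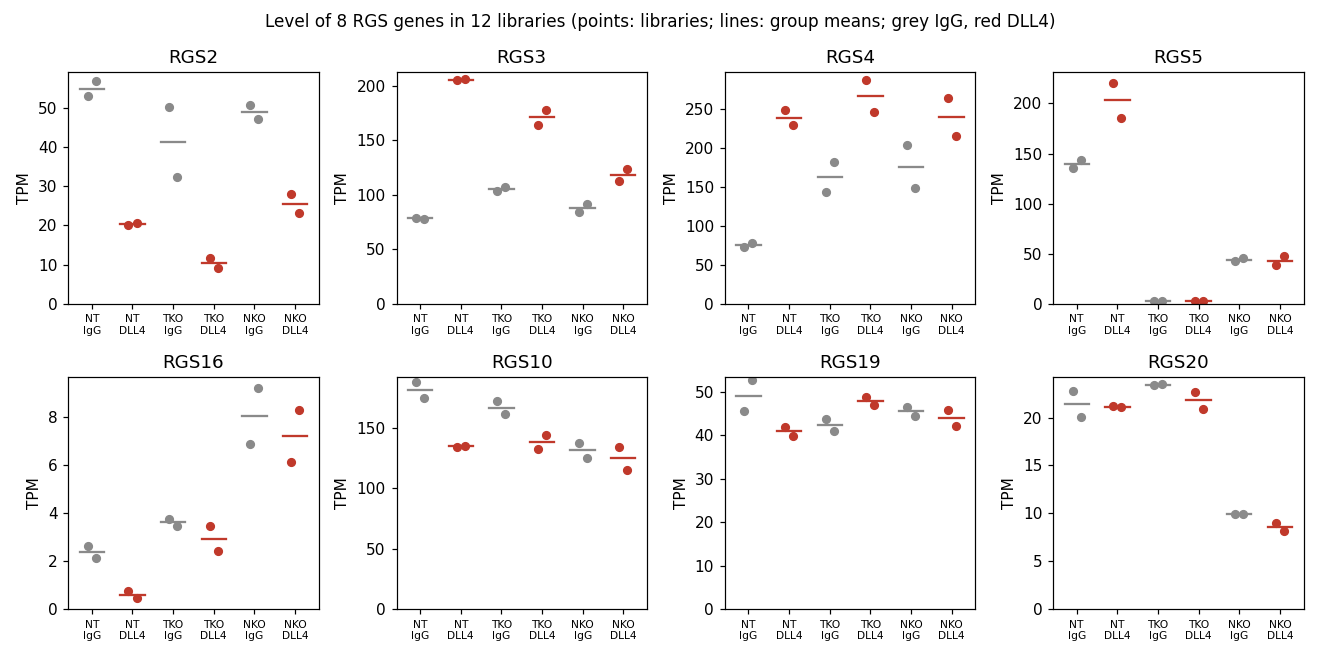
TPM of each of the 8 RGS genes in the 12 libraries by line and coating (points, libraries; lines, group means; grey, IgG; red, DLL4; each panel has its own axis from 0). RGS5 is near 140 TPM in NT on IgG and below 4 TPM in all TKO libraries, and RGS2 is lower and RGS3 higher on DLL4 in every line.

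The DLL4 coating was compared with IgG within each line. Differences are of log2(TPM + 1), from limma fitted to all 13299 genes with at least 1 TPM in at least 2 libraries, with the standard error (SE) of the fit, and a gene is counted as past the threshold at a Benjamini-Hochberg adjusted p under 0.05. In NT 6 of the 8 RGS genes were past the threshold, 3 higher and 3 lower on DLL4, where 16.0% of all tested genes were. In TKO 3 of 8 were past it, against 6.51% of all genes, and in NKO 1 of 8, against 0.782%. Because the genes were chosen with these values known, nothing is read from those counts. The same holds for any single RGS gene of the 8 called past or not past the threshold below. Such calls are no test of these genes, and only describe how the values depend on libraries and settings. The median difference over the 8 genes was -0.13 for NT, 0.01 for TKO and -0.06 for NKO, and over all tested genes 0.01, 0.02 and 0.01.

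RGS2, which acts mainly on the Gq class of alpha subunits, was lower on DLL4 in all 3 lines. Its level in NT was 52.9 and 56.8 TPM on IgG and 20.2 and 20.6 TPM on DLL4, a 2.69-fold lower mean (log2 difference -1.38 ± 0.18 SE). In TKO it was 50.2 and 32.2 TPM on IgG and 11.8 and 9.13 TPM on DLL4 (-1.86 ± 0.18). In NKO it was 50.6 and 47.2 TPM on IgG and 28.0 and 23.1 TPM on DLL4 (-0.92 ± 0.18), a difference that was not past the threshold, though it was with a replicate block, with a minimum mean of 5 TPM and with the compared libraries alone. The coatings did not overlap in any line. The TKO value rests on IgG libraries that lie apart, and leaving out either of the libraries of a compared group gave from -2.17 to -1.55. The genes whose log-scale pattern was most like RGS2 over the 12 libraries, among 9550 genes with a mean of at least 5 TPM, were FAM110A (Pearson r = 0.969), the proton-sensing receptor GPR4 (0.965) and MED10 (0.963). Likeness is given as a description, and the 12 points share lines and coatings.

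RGS3, which acts on Gi and Gq alpha subunits, was higher on DLL4 in all 3 lines. In NT it was 78.8 and 78.3 TPM on IgG and 205.1 and 206.6 TPM on DLL4, a 2.62-fold higher mean (1.38 ± 0.08 SE). In TKO it was 103.7 and 107.2 TPM on IgG and 164.6 and 177.8 TPM on DLL4 (0.69 ± 0.08). In NKO it was 84.0 and 92.0 TPM on IgG and 112.6 and 123.9 TPM on DLL4 (0.42 ± 0.08). The coatings did not overlap in any line, and the difference was largest in NT and smallest in NKO. The difference of the DLL4 responses was -0.69 ± 0.11 for TKO minus NT, with a 95% interval from -0.93 to -0.44, and -0.96 ± 0.11 for NKO minus NT, with an interval from -1.20 to -0.72. Past the threshold for such differences of responses were 1 of the 8 RGS genes for TKO minus NT (RGS3), against 0.526% of all tested genes, and 2 of 8 for NKO minus NT (RGS3 and RGS4), against 0.887%. Because the 8 genes were chosen with these values known, nothing is read from these counts either. Both differences of responses use the NT libraries. For TKO minus NT RGS3 was not past the threshold after median-of-ratios rescaling or without any 1 library other than TKO_IgG replicate 2. Its DLL4 difference in NKO was not past it without the filter, after rescaling, with the compared libraries alone, or without NKO_IgG replicate 1 or either NKO_DLL4 library. Most like RGS3 were ARHGEF17 (r = 0.987), MAGED2 (0.977) and HTRA3 (0.974), and mean ARHGEF17 was 9.54 TPM in NT on IgG and 65.8 TPM in NT on DLL4.

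RGS4, which acts on Gi and Gq alpha subunits, was higher on DLL4 in all 3 lines and was also higher on IgG in both edited lines than in NT. In NT it was 73.2 and 77.4 TPM on IgG and 247.7 and 228.7 TPM on DLL4, a 3.16-fold higher mean (1.65 ± 0.16 SE). In TKO it was 142.5 and 181.4 TPM on IgG and 286.3 and 245.4 TPM on DLL4 (0.72 ± 0.16). In NKO it was 202.8 and 148.0 TPM on IgG and 263.1 and 215.4 TPM on DLL4 (0.46 ± 0.16), which was not past the threshold. The DLL4 libraries of the 3 lines overlapped, and the IgG libraries of NT lay below all others. On IgG the log2 difference from NT was 1.09 ± 0.16 in TKO and 1.19 ± 0.16 in NKO, and on DLL4 it was 0.15 ± 0.16 and 0.00 ± 0.16, with 95% intervals from -0.20 to 0.51 and from -0.35 to 0.35. The difference of responses was -0.93 ± 0.23 for TKO minus NT and -1.19 ± 0.23 for NKO minus NT, the latter past the threshold without NKO_IgG replicate 2 but not without any other single library or without the filter. The TKO difference between coatings was not past it without the filter, TKO_IgG replicate 2 or either TKO_DLL4 library. Most like RGS4 were MED13L (r = 0.967), ANKRD1 (0.956) and AMIGO2 (0.952), and mean ANKRD1 ran from 83.4 TPM in NT on IgG to 253.2 TPM in NT on DLL4.

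**Figure D2:**
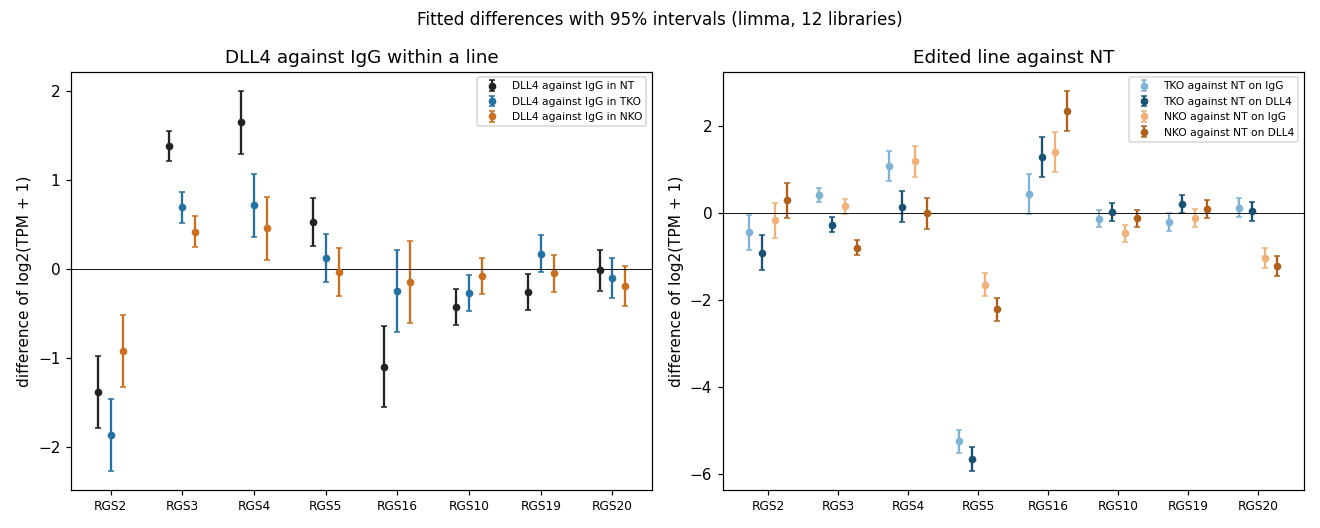
Fitted differences of log2(TPM + 1) with 95% intervals for the 8 RGS genes, DLL4 against IgG within each line (left) and each edited line against NT on each coating (right). RGS3 and RGS4 have their largest DLL4 differences in NT (1.38 and 1.65), and RGS5 in TKO lies at -5.25 and -5.66.

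RGS5, which acts on Gi and Gq alpha subunits and is widely used as a marker of pericytes, differed most between the lines. It was 135.7 and 143.9 TPM in NT on IgG and 220.6 and 185.6 TPM in NT on DLL4. It was 2.55 and 2.85 TPM in TKO on IgG and 2.88 and 3.18 TPM on DLL4. In NKO it was 42.6 and 45.6 TPM on IgG and 38.5 and 47.9 TPM on DLL4. The 3 lines did not overlap at all, with NT highest, NKO between and TKO lowest. The mean in TKO was 51.8-fold lower than in NT on IgG and 67.0-fold lower on DLL4 (-5.25 ± 0.12 and -5.66 ± 0.12 SE), and in NKO 3.17-fold and 4.70-fold lower (-1.64 ± 0.12 and -2.21 ± 0.12). Within a line, DLL4 and IgG differed by 0.53 ± 0.12 in NT, 0.13 ± 0.12 in TKO and -0.04 ± 0.12 in NKO. The NT value was not past the threshold without NT_DLL4 replicate 2 or either NT_IgG library. In bulk RNA, fewer cells that carry a transcript and less of it per cell cannot be told apart.

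Because RGS5 is a mural cell gene in many tissues, markers of pericytes and smooth muscle were set beside it. Of 12 such genes 2 passed the filter on low values, and their summed level was 2.75 to 4.67 TPM in IgG libraries and 2.73 to 4.64 TPM in DLL4 libraries. KCNJ8, a channel gene used as a pericyte marker, was at 0 in all libraries. The 2 that passed, PDGFRB, a receptor gene used as a mural cell marker, and NDUFA4L2, reached at most 1.31 and 1.82 TPM in any library. Group means of the list went both ways from NT to TKO on IgG, from 1.09 to 0.53 TPM for PDGFRB and from 0.44 to 0.87 TPM for the smooth muscle myosin gene MYH11. All 12 endothelial markers passed the filter, with sums from 2424 to 2875 TPM. Of the markers of other cells, 2 of 10 for leukocytes (29.5 to 68.4 TPM summed, mostly CD68), 2 of 8 for fibroblasts (5.88 to 10.1 TPM) and 3 of 8 for neural cells passed. The neural sum, nearly all TUBB3, was 501.7 to 590.5 TPM in NT, 234.4 to 280.3 TPM in TKO and 280.2 to 307.1 TPM in NKO, so it was lower in the lines where RGS5 was lower, and its part in the RGS5 difference was not tested. Most like RGS5 were the hyaluronidase gene HYAL1 (r = 0.995), the ganglioside synthase gene B4GALNT1 (0.993) and MLLT11 (0.991), and mean B4GALNT1 was 13.6 TPM in NT, 0.13 TPM in TKO and 4.02 TPM in NKO on IgG.

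RGS16, which acts on Gi and Gq alpha subunits, had the lowest mean of the 8 over the 12 libraries, though RGS5 lay below it in TKO on IgG, and was higher in both edited lines than in NT. In NT it was 2.64 and 2.14 TPM on IgG and 0.74 and 0.44 TPM on DLL4 (-1.09 ± 0.21 SE). In TKO it was 3.77 and 3.47 TPM on IgG and 3.46 and 2.42 TPM on DLL4 (-0.24 ± 0.21). In NKO it was 6.89 and 9.23 TPM on IgG and 6.13 and 8.30 TPM on DLL4 (-0.14 ± 0.21). NKO libraries were the highest on both coatings. Against NT the log2 difference in NKO was 1.41 ± 0.21 on IgG and 2.36 ± 0.21 on DLL4, and in TKO 0.45 ± 0.21 and 1.30 ± 0.21. At such levels the pseudocount matters: with 0.1 in place of 1 the DLL4 difference in NT was -1.88. Most like RGS16 were BIN1 (r = 0.958), PTMA (0.956) and TEAD4 (0.956).

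RGS10, of the R12 subfamily, was the highest RGS gene in NT on IgG and varied little. In NT it was 188.1 and 174.7 TPM on IgG and 134.3 and 135.2 TPM on DLL4 (-0.43 ± 0.09 SE). In TKO it was 171.9 and 161.0 TPM on IgG and 132.3 and 143.6 TPM on DLL4 (-0.27 ± 0.09), and in NKO 137.2 and 125.2 TPM on IgG and 134.3 and 114.9 TPM on DLL4 (-0.08 ± 0.09). On IgG both NKO libraries lay below both NT libraries (-0.46 ± 0.09), and in NKO the coatings overlapped. The NT difference was not past the threshold without NT_IgG replicate 2 or either NT_DLL4 library, nor the NKO difference from NT on IgG without NT_IgG replicate 2. Most like it were BIN3 (r = 0.966), UBXN8 (0.918) and the tight junction gene CLDN5 (0.906).

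RGS19 and RGS20, the RZ genes, hardly followed the coating. RGS19 ranged from 39.9 to 52.8 TPM over all libraries, and none of its differences was past the threshold. Its DLL4 difference was -0.25 ± 0.09 SE in NT, 0.17 ± 0.09 in TKO and -0.05 ± 0.09 in NKO, with a 95% interval in NT from -0.46 to -0.05. RGS20 was 22.8 and 20.01 TPM in NT on IgG and 21.2 and 21.1 TPM on DLL4. In TKO it was 23.4 and 23.5 TPM on IgG and 22.7 and 20.9 TPM on DLL4, and in NKO 9.90 and 9.96 TPM on IgG and 9 and 8.18 TPM on DLL4. NT and TKO overlapped on DLL4 and TKO lay just above NT on IgG, and all 4 NKO libraries lay below the other 8. RGS20 in NKO was 2.15-fold lower than in NT on IgG and 2.46-fold lower on DLL4 (-1.03 ± 0.10 and -1.21 ± 0.10).

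RGS20 lies on chromosome 8 (53851808 to 53959303 on the plus strand, GRCh38, GENCODE 29), and other genes there were also lower in NKO. The proton pump subunit gene ATP6V1H, 8.2 kb away, fell in NKO against NT by 0.67 on the log2 scale with IgG (limma, adjusted p = 0.0017) and by 0.86 with DLL4 (adjusted p = 0.00021). TCEA1, 7.2 kb away on the other side, had differences of -0.34 (adjusted p = 0.098) and -0.15 (adjusted p = 0.43). Of the 18 other tested genes within 5 Mb of RGS20, 16 were below NT in NKO on IgG and 17 on DLL4, with medians of -0.37 and -0.34, where the medians over all tested genes were 0.06 and 0.06. Of those 18 genes 4 fell and 0 rose on IgG, and 7 fell and 0 rose on DLL4. That is 22.2% and 38.9% falling, against 5.71% and 9.31% of all tested genes. The same 18 genes in TKO had medians of 0.10 on IgG and 0.10 on DLL4. The differences were not even along the chromosome. The 169 tested genes at lower coordinates than RGS20 had medians of -0.46 on IgG and -0.49 on DLL4, with 146 and 147 of them below 0, and the 266 at higher coordinates had medians of 0.04 and 0.04. The lower values did not end at RGS20: the 43 genes up to 20 Mb above it had medians of -0.32 and -0.33, with 31 and 34 of them below 0, and the 223 genes beyond had medians of 0.08 and 0.09. RGS20 itself lay further below NT than either median. Of the 3 genes most like RGS20, FNTA (r = 0.974) and PPP2CB (0.972) are also on chromosome 8, and the remaining one, POPDC3 (0.971), is on chromosome 6. BIN3 and UBXN8, among the genes most like RGS10 on chromosome 10, are on chromosome 8 as well. The copy number of this chromosome was not measured, and its part in the RGS20 difference was not tested. The windows were chosen after these values were seen.

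**Figure D3:**
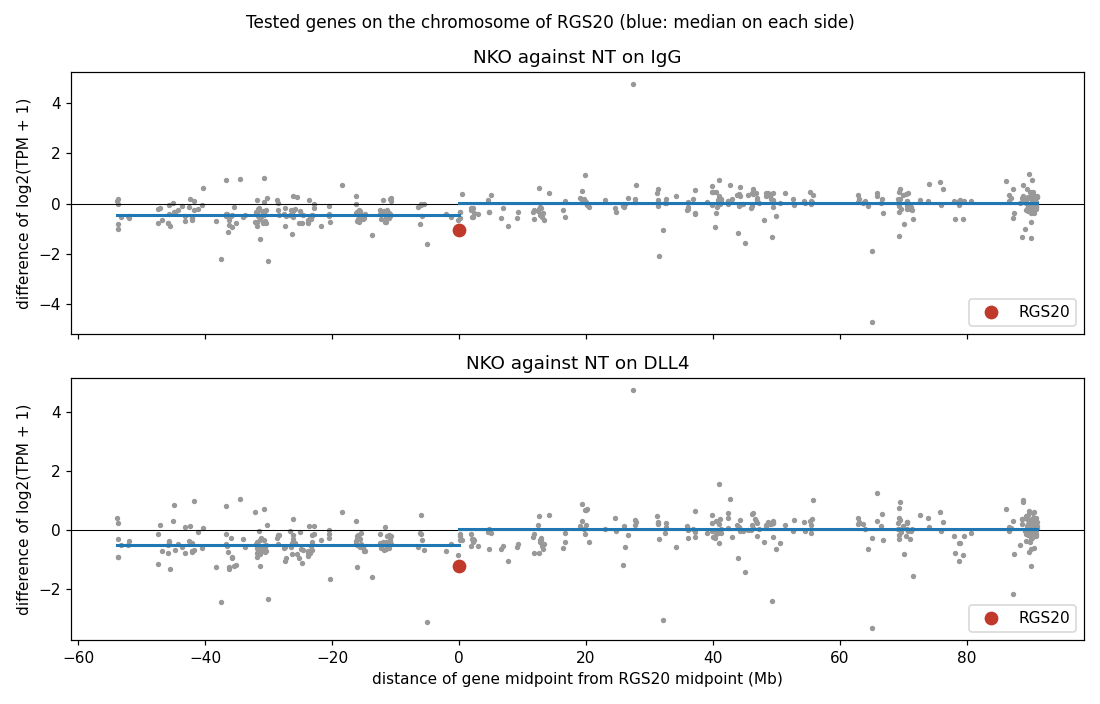
Difference of log2(TPM + 1) between NKO and NT for the tested genes on the chromosome of RGS20, by distance of the gene midpoint from that of RGS20 in Mb, on IgG (top) and DLL4 (bottom); blue lines are the medians on each side. The medians are -0.46 and -0.49 at lower coordinates and 0.04 at higher coordinates, where the values nearest RGS20 are mostly below 0, and RGS20 (red) is at -1.03 and -1.21.

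RGS4 and RGS5 are next to each other on chromosome 1, with 34.3 kb between RGS4 (163068775 to 163076802, plus strand) and RGS5 (163111121 to 163321791, minus strand). They did not follow one another: in TKO on IgG the level of RGS4 was 56.0 and 63.7 times that of RGS5, and in NT on IgG it was 0.54 times in both libraries. NUF2, a kinetochore gene on the opposite strand, overlaps the span of RGS5. Reads from exon sequence shared by such a pair cannot be told apart where strand was not used in counting. Whether these genes share exon sequence was not examined. NUF2 was at 25.3 to 34.4 TPM in all libraries. Its TKO against NT differences were 0.16 on IgG (limma, adjusted p = 0.34) and 0.25 on DLL4 (adjusted p = 0.16). The 61 other tested genes within 5 Mb of RGS5 had median TKO against NT differences of 0.12 on IgG and 0.02 on DLL4.

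**Figure D4:**
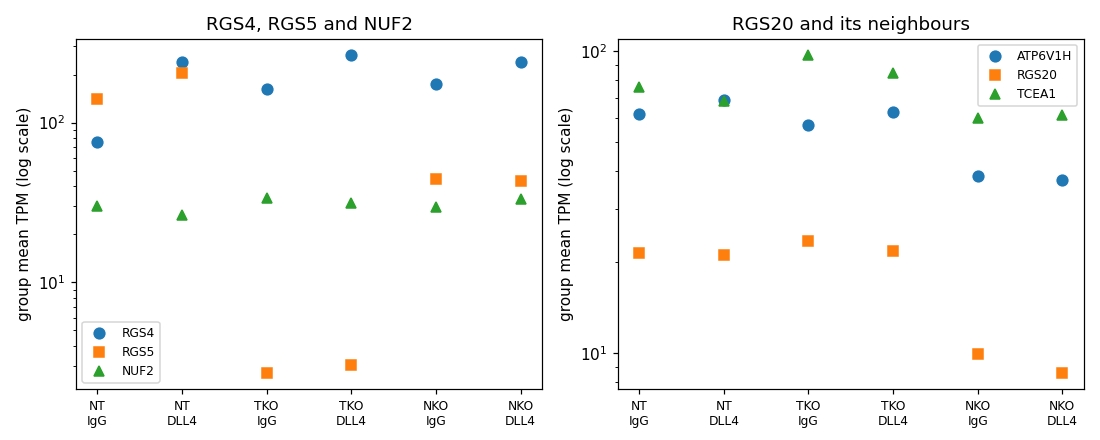
Group mean TPM on a log scale of RGS4, RGS5 and the overlapping gene NUF2 (left) and of RGS20 with its nearest tested neighbours ATP6V1H and TCEA1 (right). RGS5 is at 2.70 TPM in TKO on IgG, where NUF2 is at 33.7 TPM, and NUF2 is between 26.5 and 33.7 TPM over the 6 groups. RGS20, ATP6V1H and TCEA1 are all lowest in NKO.

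Set against NT on the same coating, 3 of the 8 RGS genes were past the threshold in TKO on IgG (RGS3 and RGS4 higher, RGS5 lower), where 27.6% of all tested genes were. On DLL4 4 of 8 were (RGS16 higher, RGS2, RGS3 and RGS5 lower), against 26.6%. In NKO on IgG 5 of 8 were (RGS4 and RGS16 higher, RGS5, RGS10 and RGS20 lower), against 10.7%. In NKO on DLL4 4 of 8 were (RGS16 higher, RGS3, RGS5 and RGS20 lower), against 20.7%. RGS5 was past the threshold in all 4 of these comparisons. Because the 8 genes were chosen with these values known, nothing is read from these calls or counts. TKO and NKO were compared with the same NT libraries. The RGS2 difference from NT was -0.44 ± 0.18 SE in TKO on IgG and -0.91 ± 0.18 on DLL4, and in NKO it was -0.16 ± 0.18 and 0.30 ± 0.18. The RGS3 difference between TKO and NT was 0.42 ± 0.08 on IgG and -0.27 ± 0.08 on DLL4, so its sign differed between the coatings, and on DLL4 it was not past the threshold without any 1 of the 4 libraries compared, written as a log2 difference of -0.27.

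The make-up of the summed RGS transcripts also differed. The 21 numbered RGS genes together came to a mean of 667.6 TPM in NT on IgG and 928.2 TPM on DLL4, 624.3 and 747.3 TPM in TKO, and 625.5 and 678.2 TPM in NKO. The 8 genes made up 86.7% to 93.9% of that sum in every library. In NT on IgG RGS10 led with 27.2% of the sum and RGS4 held 11.3%, and on DLL4 RGS4 led with 25.7% and RGS10 held 14.5%. RGS4 held 35.5% in TKO and 35.2% in NKO on DLL4. RGS5 held 20.9% in NT, 0.43% in TKO and 7.07% in NKO on IgG. The R4 genes together went from 52.6% of the sum on IgG to 72.0% on DLL4 in NT, from 50.4% to 60.7% in TKO and from 58.2% to 63.9% in NKO. The ratio of RGS4 to RGS2, R4 genes on opposite sides of 0 in the DLL4 comparisons, was 1.38 and 1.36 in the NT libraries on IgG and 12.3 and 11.1 on DLL4. It was 2.84 and 5.63 in TKO on IgG and 24.3 and 26.9 on DLL4, and 4.01 and 3.13 in NKO on IgG and 9.41 and 9.31 on DLL4.

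**Figure D5:**
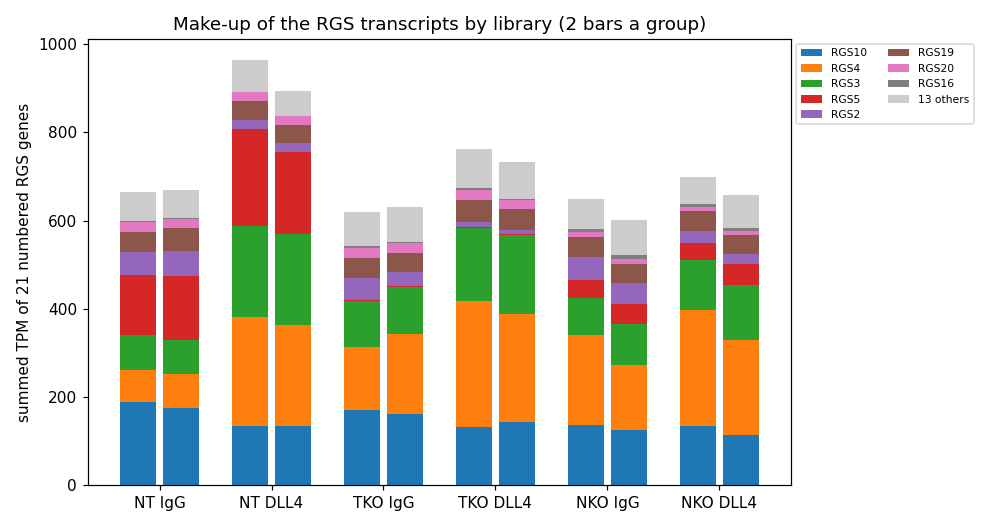
Summed TPM of the 21 numbered RGS genes in each library, stacked by gene (2 bars per group; grey, the 13 other RGS genes). The sum is highest in NT on DLL4 (mean 928.2 TPM), and the RGS5 segment is 0.43% of the sum in TKO on IgG against 20.9% in NT on IgG.

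Of the 13 other numbered RGS genes 5 passed the filter. RGS11, of the R7 subfamily, was 2.49 and 2.68 TPM in NT on IgG and 15.5 and 14.7 TPM in TKO on IgG. It rose in TKO against NT, by 2.17 on the log2 scale with IgG (limma, adjusted p = 0.00095) and by 1.77 with DLL4 (adjusted p = 0.0029). In NKO on IgG it was 6.59 and 11.3 TPM and rose by 1.43 (adjusted p = 0.025), with adjusted p up to 0.11 without single libraries or without the filter. RGS14 fell on DLL4 in NT by 0.81 (adjusted p = 0.037) from 17.2 and 21 TPM to 13.2 and 8.25 TPM, and RGS17 fell in TKO against NT on DLL4 by 0.75 (adjusted p = 0.016). Both calls were lost without single libraries, with adjusted p up to 0.25 for RGS14 and 0.10 for RGS17. RGS12 (36.5 to 49.1 TPM) and RGS9 (1.05 to 2.10 TPM) passed the threshold in none of the 9 comparisons. The other 8, RGS1, RGS6, RGS7, RGS8, RGS13, RGS18, RGS21 and RGS22, reached at most 0.83 TPM in any library.

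The rest of the G protein pathway was followed through 139 genes, including the 13 other RGS genes, of which 85 were tested. On DLL4 27 of the 85 passed the threshold in NT (16 rose, 11 fell), 11 in TKO (5 rose, 6 fell) and 4 in NKO (4 rose). Against NT 36 passed in TKO on IgG, 43 in TKO on DLL4, 15 in NKO on IgG (8 rose, 7 fell) and 26 in NKO on DLL4. In the same order these are 42.4%, 50.6%, 17.6% and 30.6% of the 85, against 27.6%, 26.6%, 10.7% and 20.7% of all tested genes. After median-of-ratios rescaling 7 rose and 10 fell in NKO against NT on IgG, and 3 rose and 1 fell on DLL4 in NKO. Receptors made up much of this: of 29 tested G protein-coupled receptors with described roles in endothelium, 16 passed on DLL4 in NT (11 rose, 5 fell), 10 in TKO (5 rose, 5 fell) and 3 in NKO (3 rose). The share of all tested genes in those comparisons was 16.0%, 6.51% and 0.782%. The receptors had a median difference of 0.24 for NT, 0.02 for TKO and 0.03 for NKO. All pathway lists were chosen with earlier results of these data known. Their counts and shares are therefore a description, and no enrichment is read from them. ADCY4, PTGIR, P2RY2 and CXCR4 lay below 1 TPM in all NT libraries and passed the filter only through edited lines. BDKRB2 lay below 1 TPM in all TKO libraries. For such genes the filter favoured a call in the direction seen, and they are included in the counts above.

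The thrombin receptor gene F2R was 123.3 and 119.0 TPM in NT on IgG and 519.3 and 467.6 TPM on DLL4. It rose 4.07-fold on DLL4 in NT (2.02 ± 0.10 SE, limma, adjusted p = 6.2e-07), 2.28-fold in TKO (adjusted p = 4.6e-05) and 1.80-fold in NKO (adjusted p = 0.0018). The response was smaller than in NT by a difference of -0.83 ± 0.13 for TKO (adjusted p = 0.023) and -1.17 ± 0.13 for NKO (adjusted p = 0.0026). The adenosine receptor gene ADORA2B was 40.0 and 37.0 TPM in NT on IgG and 123.7 and 119.9 TPM on DLL4, and rose in NT by 1.64 (adjusted p = 6.4e-06) and in TKO by 1.19 (adjusted p = 0.00011). In NKO it was 33.3 and 29.5 TPM on IgG and 41.9 and 37.6 TPM on DLL4, and its response differed from that of NT by -1.31 ± 0.16 (adjusted p = 0.0028). F2RL1, which encodes a receptor cut by trypsin-like proteases, rose in all 3 lines, by 2.85 in NT (10.4 and 10.4 TPM on IgG, 80.1 and 82.0 TPM on DLL4, adjusted p = 4.2e-05), by 1.73 in TKO (adjusted p = 0.0024) and by 2.10 in NKO (4.08 and 7.15 TPM on IgG, 20.8 and 34.1 TPM on DLL4, adjusted p = 0.0027). Receptor genes also fell: in NT the prostaglandin receptor gene PTGER4 fell by 1.25 (adjusted p = 0.00035) and GPRC5A, an orphan receptor gene, by 1.14 (adjusted p = 0.00035), and in TKO GPR4 fell by 0.72 (adjusted p = 0.0024).

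Between the lines, the bradykinin receptor gene BDKRB2 was 9.91 and 11 TPM in NT and 0.04 and 0.20 TPM in TKO on IgG. The log2 difference was -3.36. BDKRB2 lay below 1 TPM in all TKO libraries and passed the filter only through NT and NKO, so no p-value is given for it. P2RY2, a receptor for extracellular nucleotides, was listed at 0 in both NT libraries on IgG and was 8.78 and 9.93 TPM in TKO and 4.21 and 3.65 TPM in NKO on IgG. The prostacyclin receptor gene PTGIR was 0.48 and 0.33 TPM in NT and 10.3 and 12.1 TPM in TKO on DLL4, a log2 difference of 3.12. P2RY2 and PTGIR lay below 1 TPM in all NT libraries and passed the filter only through the edited lines, so no p-value is given for them. S1PR1, the main endothelial receptor for sphingosine-1-phosphate, was 159.7 to 211.6 TPM over the libraries on IgG.

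Among the alpha subunits that RGS proteins act on, GNAI1 was 24.3 and 23.7 TPM in NT and 11.2 and 9.67 TPM in TKO on IgG and fell by 1.13 on the log2 scale (limma, adjusted p = 3.5e-05). GNAI2, the most abundant Gi gene, had a mean of 657.9 TPM over the 12 libraries. On DLL4 it was lower in NKO than in NT by 0.24 (limma, adjusted p = 0.031), with adjusted p up to 0.22 among the alternatives. GNAQ rose on DLL4 in NT by 0.59 (adjusted p = 0.017), with adjusted p up to 0.12. Of 11 tested beta and gamma subunit genes, GNG2 fell in TKO on IgG by 1.01 (adjusted p = 0.0014) and GNG11 fell in NKO on IgG by 0.86 (adjusted p = 4e-05). Of 10 tested regulators of G proteins and receptors, 5 rose and 0 fell in TKO on IgG, where 15.2% of all tested genes rose and 12.4% fell. Among the 5 were the arrestin gene ARRB1, from 19.5 and 19.99 TPM to 44.1 and 59.2 TPM (1.33, adjusted p = 6.2e-05), and NUCB2 (limma, 0.85, adjusted p = 5.6e-05). Of 14 tested genes with an RGS-homology domain or RGS-binding partners, the receptor kinase gene GRK2 rose in TKO on IgG by 0.68 (adjusted p = 0.0034) and GRK5 fell by 0.48 (adjusted p = 0.0028). Of 8 tested effector genes, the adenylyl cyclase gene ADCY4 was 0.26 and 0.08 TPM in NT on IgG. In NKO on IgG it was 4.23 and 7.58 TPM, a log2 difference of 2.52. ADCY4 lay below 1 TPM in all NT libraries and passed the filter only through the edited lines, so no p-value is given for it.

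The labels were checked on the targeted genes and on Notch targets. In limma's fit TSPAN14 fell in TKO against NT, by 0.57 with IgG (adjusted p = 0.0015) and by 0.68 with DLL4 (adjusted p = 0.00039). NOTCH1 in NKO differed by -0.10 on IgG (adjusted p = 0.72) and fell by 0.61 on DLL4 (adjusted p = 0.023). Transcript level need not follow an edit of the coding sequence. The Notch targets HES4 and HEY2 rose on DLL4 in every line, HES4 by 3.91 in NT, 3.61 in TKO and 2.12 in NKO (adjusted p = 6.2e-07, 2.2e-06 and 0.00095), and HEY2 by 2.23, 0.93 and 0.58 (adjusted p = 6.3e-07, 0.00058 and 0.04). HEY2 in TKO was above NT on IgG by 1.38 (limma, adjusted p = 6.1e-06), and on DLL4 the difference was 0.08 (adjusted p = 0.65). HES4 in TKO was below NT on IgG by 1.11 (adjusted p = 0.0013) and on DLL4 by 1.41 (adjusted p = 0.00023).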

How the data were processed

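The authors deposited TPM per gene symbol for 12 libraries, and the submitters' processing notes name kallisto, edgeR and hg38. Their versions, and how transcripts were summed, are not given in those notes. TPM keep no read depth, so precision rests on the spread between the 2 libraries of a group, pooled for each gene over the 6 groups. The SE of a gene is therefore the same in every comparison between 2 groups and is not the spread of those groups alone. The NT and TKO columns are numbered 2 and 3 and the NKO columns 1 and 2, where the labels number 1 and 2. Libraries are named by column number.

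Genes with at least 1 TPM in at least 2 libraries (13299) entered limma (version 3.58.1, R 4.3.3) on the log2(TPM + 1) scale. The model gave each group its own mean, moderated variances along a trend, and took two-sided p-values adjusted by Benjamini-Hochberg over all genes. It was run on simulated data with independent noise for each gene and library. That simulation held no difference shared by a whole library, so it cannot show how the fit behaves under one. Folds are ratios of mean TPM, and log2 differences understate the change of low genes. The deviations of same-numbered libraries had r from -0.154 to 0.279, the highest between the NKO groups and all others under 0.1, so numbers were not used as pairs.

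The 8 genes, the lists and the tests were chosen with earlier results of these data known. All 8 are named, with every tested RGS gene, up to 2 called pathway genes per list, direction and comparison with at least 5 TPM (a selection of them is printed) and the 3 highest of each list, the 3 genes most alike (not reported here for RGS19), and the nearest tested neighbours. S1PR1 is named as 1 of the highest receptors, and the windows around RGS20 and RGS5 were added. Alternatives were other pseudocounts, filters, scalings, sample sets, a replicate block and leaving out each library. Positions are from GENCODE 29 and promoters from RefSeq.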

Additional observations from a re-analysis of the deposited data

Results flagged for a closer look

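For receptor genes of the pathway the DLL4 response differed between lines by a test of the difference itself (limma on all 13299 genes, two-sided). For TKO minus NT the differences were -1.26 for GPRC5B (adjusted p = 0.021), -0.83 for F2R (adjusted p = 0.023) and -1.38 for F2RL2 (adjusted p = 0.029). For NKO minus NT they were -1.17 for F2R (adjusted p = 0.0026), -1.31 for ADORA2B (adjusted p = 0.0028) and -1.04 for GPRC5B (adjusted p = 0.041). On the log2 scale the response was smaller in the edited line in every one, and both comparisons used the same NT libraries. In mean TPM GPRC5B went from 1.35 to 8.56 in NT and from 13.5 to 23.6 in TKO. The 3 genes named per comparison are 3.53% of the 85 tested pathway genes, against 0.526% and 0.887% of all tested genes. No enrichment is read from these shares.

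GPRC5B, an orphan receptor gene, was 1.56 and 1.14 TPM in NT on IgG and 7.91 and 9.22 TPM on DLL4, and 12.7 and 14.2 TPM in TKO on IgG and 24.1 and 23.1 TPM on DLL4. F2RL2, a thrombin receptor gene, was 4.92 and 5.37 TPM in NT on IgG and 16.3 and 14.2 TPM on DLL4, and stayed between 1.33 and 1.71 TPM in TKO. The F2R and ADORA2B differences for NKO were past the threshold under every alternative run. The 4 others were lost in 6 to 11 of 14 alternatives, with adjusted p up to 0.12 for GPRC5B and for F2R in TKO, 0.14 for F2RL2 and 0.17 for GPRC5B in NKO.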

How the results depend on the processing

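No value past the threshold changed sign under any alternative run. With a replicate block in the fit, 2 RGS genes (RGS2 and RGS3) were past the threshold for DLL4 in NKO instead of 1 (RGS3), and no other count moved by over 1.5 times. That NKO count was 0 without the filter and after median-of-ratios rescaling, and 2 among genes with a mean of at least 5 TPM. The RGS count for the TKO minus NT response was 0 after rescaling, and that for NKO minus NT was 1 without the filter. Pathway genes called were 7 for DLL4 in TKO and 2 in NKO when only the compared libraries were fitted (11 and 4 otherwise), 9 for NKO against NT on IgG at a mean of at least 5 TPM (15 otherwise), and 1 for the TKO minus NT response without the filter (3 otherwise). Without 1 library the RGS counts were 4 to 5 for DLL4 in NT, 2 to 3 in TKO and 0 to 1 in NKO. They were 0 to 1 for the TKO minus NT response and 1 to 2 for NKO minus NT. Pathway counts without 1 library were 13 to 16 for DLL4 in NT, 6 to 9 in TKO, 2 to 3 in NKO, 8 to 12 for NKO against NT on IgG and 0 to 3 for the TKO minus NT response. Fewer libraries leave fewer degrees of freedom, and other causes were not tested. TPM keep no depth, so no detection limit can be given.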
